A study of Mus musculus with 12 samples.

Results

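The glucocorticoid receptor and a set of its well-known target genes were followed here in mouse lung: Nr3c1, which encodes the receptor, and Fkbp5, Tsc22d3, Zbtb16, Klf9, Cebpd, Sgk1, Pdk4 and Angptl4. The members, and the gene lists set beside them, were chosen by name with earlier results of these data known. Shares of members or lists set beside the share of all genes are therefore descriptions and not tests. Every probe set annotated with a member as its sole symbol was read. The probe set of the highest mean signal led for each gene. The 9 genes had 29 probe sets among the 45037 on the array. Of these, 24 passed a filter on low signal, as did a lead probe set of every member, so all 9 were among the 12309 genes tested. The 5 that fell under the filter were 1 each of Fkbp5, Klf9 and Cebpd and 2 of Tsc22d3.

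Whole-lung RNA was hybridised to 12 one-colour Affymetrix arrays, 3 per group, and each array is labelled as a separate replicate, from 3 animals per group by the series text. All mice were male C57BL/6, aged 8-12 weeks. Wild-type mice and mice without the non-muscle form of the myosin light chain kinase (nmMLCK-/-), an enzyme of the contractile cytoskeleton that regulates endothelial barrier function, either breathed spontaneously (SB) or were mechanically ventilated for 4 h to cause ventilator-induced lung injury (VILI). The sample labels give a tidal volume of 40 ml/kg, where the series text gives 30 ml/kg, at 65 breaths per minute with the end-expiratory pressure set to 0 cm H2O. A low tidal volume was not among the groups. Which cells lack the kinase, whether SB mice were anaesthetised or handled, and at what hour lungs were taken, the sources used here do not say. The comparison of VILI with SB therefore holds ventilation and everything that went with it.

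The values are log2 signals. Array medians lay between 4.94 and 5.04, and any pair of arrays correlated over all probe sets at between 0.981 and 0.998. The lung label was borne out by Sftpc, a surfactant protein of alveolar type II cells, at 15.70 to 15.81 on every array and by Scgb1a1, a secretoglobin of airway club cells, at 16.15 to 16.22. The 3 probe sets of Mylk, the gene of the kinase, were 0.22 to 0.97 log2 units lower in knockout than in wild-type lung under SB and 0.14 to 0.74 lower under VILI, with no adjusted p under 0.05. The gene also encodes a smooth-muscle isoform, and the sources used here do not say whether these probes lie in the deleted part, so this does not check the genotype labels. Neutrophil markers, of which 9 of 14 listed were tested, stood at a median of 1.13 log2 units above their 12-array mean in wild-type SB replicate 3, inside the range of the 6 VILI arrays, 0.45 to 1.63. They stood between 1.46 and 1.15 units below it in the other 5 SB arrays. The summed level of these markers was 14.07 to 15.58 in wild-type SB, 13.35 to 13.85 in knockout SB, 15.34 to 15.92 in wild-type VILI and 15.50 to 16.13 in knockout VILI, as log2. Mpo, Elane and Camp, also listed, were under the filter. In whole tissue, fewer cells of a type and less RNA per cell cannot be told apart.

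The glucocorticoid receptor is a steroid-activated transcription factor. Held in the cytoplasm by heat-shock chaperones, it moves into the nucleus when corticosterone or a synthetic steroid binds, and there it attaches to response elements made of a pair of inverted short sites or acts through other factors. Its targets restrain the receptor itself, dampen inflammation and shift fuel use towards fat, and several of them also respond to fasting, to insulin and to stress kinases.

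For most of these genes the widest differences lay within the SB groups. Knockout SB replicate 2 and wild-type SB replicate 3 were the 2 lowest of the 6 SB arrays for 7 of the 9 genes (Fkbp5, Tsc22d3, Zbtb16, Sgk1, Klf9, Pdk4 and Angptl4). The same was true of 2156 of the 12309 genes tested, 17.5%. Nr3c1 ran the other way, with those 2 arrays the highest, as for 26.8% of all genes, and Cebpd did neither. The order was not particular to these targets. Those 2 arrays were also lowest for 8 of 13 PPAR and fasting genes and 3 of 6 adipose markers, both described below. They were lowest for 3 of 13 chaperones, cofactors and steroid enzymes of the receptor and for 0 of 10 cardiac and skeletal muscle markers. For 4 members the distance from these 2 arrays to the lowest of the other 4 SB arrays was at least 1 log2 unit, against 99 of all genes, 0.804%. The median range across the 6 SB arrays was 1.40 log2 units for the 9 members and 0.51 for all genes, while across the 6 VILI arrays it was 0.54 and 0.42. Nothing in the labels sets the 2 arrays apart from the rest of their groups. They were singled out from the values, so they are described array by array and make no group, and results are given with and without them.

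**Figure D1:**
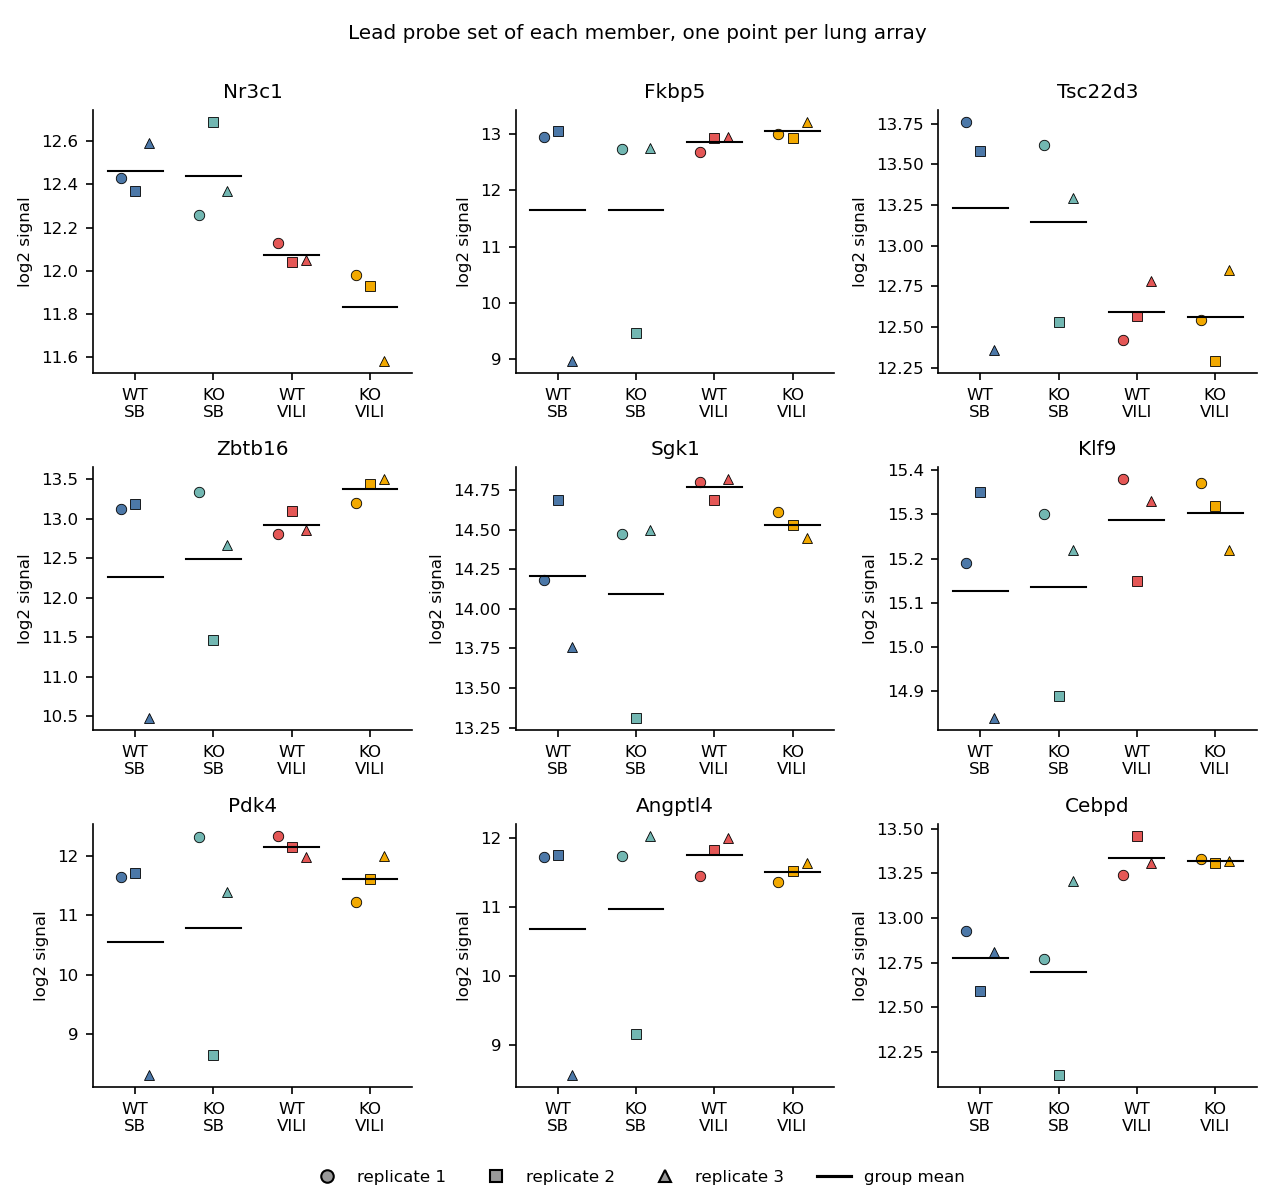
Log2 signal of the lead probe set of each of the 9 genes, 1 point per lung array, with groups along the x axis, the replicate number as marker shape and the group mean as a line (WT, wild type; KO, nmMLCK-/-). Knockout SB replicate 2 and wild-type SB replicate 3 fall far below the other arrays for Fkbp5, Pdk4, Angptl4 and Zbtb16, whereas Nr3c1 is lower and Cebpd higher in every VILI array of a genotype than in its SB arrays.

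Promoter sequences are shown for the members whose signals fell furthest together in those 2 arrays, or that hold a match to a receptor site, so that the letters near their start sites can be read beside the signals. RefSeq promoters of mouse build GRCm38.p6 were read for 5 of the 9 members (Fkbp5, Tsc22d3, Sgk1, Klf9 and Pdk4), 12 promoters in all. Each was searched over the 250 bases before and the 50 bases after the start site. The reading of members left out a chromosome that the count over all promoters kept. A full receptor site was searched as GNACANNNTGTNC, which reads the same on both strands, and its core hexamer as AGAACA or, on the other strand, TGTTCT. The hexamer can overlap a full site. Capitals mark matches in the 250 bases upstream of each start, written 5′ to 3′ along the gene's own strand.
Fkbp5, chr17:28486150-28486399, minus strand: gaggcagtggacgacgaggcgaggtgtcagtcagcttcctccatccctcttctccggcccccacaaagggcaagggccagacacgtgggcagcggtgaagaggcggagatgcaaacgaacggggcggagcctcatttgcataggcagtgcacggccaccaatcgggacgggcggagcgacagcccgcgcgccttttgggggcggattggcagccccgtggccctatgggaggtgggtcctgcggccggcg
Pdk4, chr6:5496279-5496528, minus strand: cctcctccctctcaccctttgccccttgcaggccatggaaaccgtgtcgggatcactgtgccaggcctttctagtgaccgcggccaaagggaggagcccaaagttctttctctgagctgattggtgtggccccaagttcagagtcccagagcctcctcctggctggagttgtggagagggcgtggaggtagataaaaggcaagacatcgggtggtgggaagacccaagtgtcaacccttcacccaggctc
Tsc22d3, chrX:140600523-140600772, minus strand: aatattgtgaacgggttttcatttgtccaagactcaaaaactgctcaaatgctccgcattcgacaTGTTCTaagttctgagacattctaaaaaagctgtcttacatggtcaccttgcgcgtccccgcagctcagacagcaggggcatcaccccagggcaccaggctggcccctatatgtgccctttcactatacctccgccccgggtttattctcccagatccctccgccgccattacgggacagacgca
Sgk1, chr10:21993640-21993889, plus strand: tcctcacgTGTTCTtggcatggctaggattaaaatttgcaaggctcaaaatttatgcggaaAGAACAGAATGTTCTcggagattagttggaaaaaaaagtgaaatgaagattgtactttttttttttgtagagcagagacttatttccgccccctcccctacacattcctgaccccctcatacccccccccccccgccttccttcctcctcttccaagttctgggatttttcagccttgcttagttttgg
A full site was present in 1 of the 12 promoters, the printed one of Sgk1, where it began at position -188 from the start site, with hexamers at -242, -189 and -180, the last 2 overlapping it. A full site was held by 156 of all 32851 RefSeq promoters of the same length, 0.475%. A hexamer was present in 4 of the 12, which were 3 of the 6 start sites of Sgk1 and 1 of the 3 of Tsc22d3, where it began at -185. Of all promoters, 19% held a hexamer. Neither motif was matched in the windows of Fkbp5, Pdk4 and Klf9, which says only that these letters do not occur there.

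The receptor gene itself was lower after VILI. The lead probe set of Nr3c1 read 12.43, 12.37 and 12.59 in wild-type SB, 12.13, 12.04 and 12.05 in wild-type VILI, 12.26, 12.69 and 12.37 in knockout SB and 11.98, 11.93 and 11.58 in knockout VILI. All 3 VILI arrays lay below all 3 SB arrays in both genotypes, and the 2 highest SB arrays were the 2 in which the targets were lowest. The difference was -0.39 ± 0.14 log2 units in wild type (standard error, 3 against 3 arrays, limma, adjusted p = 0.0783) and -0.61 ± 0.14 in knockout (adjusted p = 0.0131). Averaged over both genotypes, with the 2 contrasts weighted equally, it was -0.50 ± 0.10 (adjusted p = 0.00313). The call for the average and the call in knockout both held when any 1 of the 12 arrays was dropped, the adjusted p being no higher than 0.00912 and 0.0442. In wild type the difference passed the threshold in 1 of those fits, the one lacking knockout SB replicate 2 (adjusted p = 0.0481). Of the other 5 Nr3c1 probe sets, in order of mean signal, 3 were also lower for the average when every probe set was tested, the second, the third and the fifth (-0.50, -0.41 and -1.34, adjusted p = 0.0134, 0.0246 and 0.0484). Dropping single arrays cost the third its call in 3 of 12 fits and the fifth in 10. The fourth differed by -0.69 (adjusted p = 0.0881) and the sixth, whose mean signal of 4.07 lay near the filter at 3.06, by 0.18 (adjusted p = 0.454).

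Fkbp5 encodes a co-chaperone that is induced by the receptor and lowers its affinity for hormone. Its lead probe set read 12.94, 13.05 and 8.97 in wild-type SB and 12.73, 9.47 and 12.74 in knockout SB. In VILI it read 12.68, 12.93 and 12.94 in wild type and 12.99, 12.93 and 13.21 in knockout. Thus 4 of the 6 SB arrays lay inside the range of the VILI arrays, and the other 2 stood alone far below it. The higher of those 2 was 3.26 log2 units, or 9.60-fold, below the lowest of the other 4 SB arrays. The second Fkbp5 probe set split in the same way, at 4.04 in wild-type SB replicate 3 and 6.08 in knockout SB replicate 2 against 9.89 to 10.65 in the other 4. With all arrays Fkbp5 was 1.20 ± 1.08 log2 units higher in VILI than in SB in wild type (limma, adjusted p = 0.49) and 1.39 ± 1.08 in knockout (adjusted p = 0.376), neither past the threshold. Without the 2 arrays the difference turned to -0.15 ± 0.12 in wild type and became 0.31 ± 0.12 in knockout. On the second probe set it was then -0.29 ± 0.23 in wild type and -0.13 ± 0.23 in knockout, so the 2 probe sets differed in sign in knockout.

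Tsc22d3 encodes GILZ, a leucine-zipper protein through which glucocorticoids restrain inflammatory signalling. Its lead probe set read 13.76, 13.58 and 12.36 in wild-type SB and 13.62, 12.53 and 13.29 in knockout SB, against 12.42, 12.57 and 12.78 in wild-type VILI and 12.54, 12.29 and 12.85 in knockout VILI. Here 4 SB arrays stood above every VILI array, and the same 2 SB arrays as for Fkbp5 lay at the level of VILI. The difference was -0.64 ± 0.36 in wild type (limma, adjusted p = 0.261), -0.59 ± 0.36 in knockout (adjusted p = 0.266) and -0.61 ± 0.26 on average (adjusted p = 0.0851). Leaving out the 2 arrays gave -1.08 ± 0.18, -0.89 ± 0.18 and -0.98 ± 0.13. Since those arrays were singled out for low values of these genes, Tsc22d3 among them, leaving them out raises SB and narrows the error by construction, and these values are a description with no test. Leaving out wild-type SB replicate 3 alone gave an average of -0.83 (adjusted p = 0.00848), and leaving out knockout SB replicate 2 alone gave -0.77 (adjusted p = 0.0387). The wild-type difference passed in the first of these fits (adjusted p = 0.033), and the same limit applies to all 3 values. The second Tsc22d3 probe set read 13.70, 13.48 and 12.06 in wild-type SB, 13.25, 12.09 and 13.03 in knockout SB and 11.71 to 12.41 in VILI. It differed by -0.94 ± 0.29 on average in the test of every probe set (adjusted p = 0.033), a call lost in 8 of 12 fits with an array dropped, and by -1.37 ± 0.12 without the 2 arrays.

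Of the transcription factors, Zbtb16 encodes the zinc-finger protein PLZF. Its lead probe set read 13.12, 13.18 and 10.48 in wild-type SB, 13.34, 11.47 and 12.67 in knockout SB, 12.81, 13.10 and 12.86 in wild-type VILI and 13.19, 13.43 and 13.50 in knockout VILI. The 2 low SB arrays lay at least 1.20 log2 units under the other 4, a 2.30-fold distance, and the rest overlapped VILI. The third Zbtb16 probe set read 6.65 in both low arrays and 9.81 to 10.62 in the other SB arrays. VILI exceeded SB by 0.66 ± 0.66 in wild type and 0.87 ± 0.66 in knockout, both within the spread (limma, adjusted p = 0.529 and 0.361), and without the 2 arrays by -0.22 and 0.36.

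Klf9, a Krüppel-like factor, varied least of the targets that followed this order. Its lead probe set read 15.19, 15.35 and 14.84 in wild-type SB and 15.30, 14.89 and 15.22 in knockout SB, against 15.15 to 15.38 over the 6 VILI arrays. The 2 low arrays were 0.30 log2 units under the rest of SB. Across the other 5 Klf9 probe sets past the filter the range over SB reached 1.84 log2 units. VILI and SB differed by 0.16 ± 0.15 in each genotype.

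Cebpd, a bZIP factor that responds to glucocorticoids and to inflammatory cytokines, was the member that rose. It read 12.93, 12.59 and 12.81 in wild-type SB, 13.24, 13.46 and 13.31 in wild-type VILI, 12.77, 12.12 and 13.21 in knockout SB and 13.33, 13.31 and 13.32 in knockout VILI. Every VILI array exceeded every SB array of either genotype, and wild-type SB replicate 3 lay amid its group. The difference was 0.56 ± 0.22 in wild type (limma, adjusted p = 0.111), 0.62 ± 0.22 in knockout (adjusted p = 0.0688) and 0.59 ± 0.15 on average (adjusted p = 0.014), which held whichever of the 12 arrays was dropped (adjusted p at most 0.0346). The single-genotype calls turned on SB arrays of the knockout: dropping knockout SB replicate 3 gave a knockout difference of 0.87 (adjusted p = 0.0161), and dropping knockout SB replicate 2 or 3 gave wild type an adjusted p of 0.0207 or 0.0478. Neutrophil markers rose in the same comparison, 7 of 9 for the average, where 14.1% of all genes were called higher. In wild-type SB replicate 3 their median lay inside the VILI range, while Lcn2 (12.57) and Mmp8 (7.23) lay below every VILI array. Cebpd read 12.81 there. The part of these markers in the Cebpd difference was not tested.

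Sgk1 encodes a kinase of the PI3K pathway that promotes sodium uptake across epithelia. It read 14.18, 14.69 and 13.76 in wild-type SB, 14.80, 14.69 and 14.82 in wild-type VILI, 14.47, 13.31 and 14.50 in knockout SB and 14.61, 14.53 and 14.45 in knockout VILI. In wild type the lowest VILI array stood at the same level as the highest SB array at 2 decimals, and in knockout the groups overlapped. The differences were 0.56 ± 0.30, 0.43 ± 0.30 and 0.50 ± 0.22 on average (limma, adjusted p = 0.24, 0.328 and 0.0939). The average passed the threshold in 1 of the 12 fits with an array dropped, the one lacking wild-type SB replicate 2 (0.62, adjusted p = 0.0422), and was 0.19 without the 2 low arrays.

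Pdk4 encodes a mitochondrial kinase that shuts down pyruvate dehydrogenase and spares glucose. It read 11.65, 11.71 and 8.31 in wild-type SB, 12.34, 12.15 and 11.98 in wild-type VILI, 12.32, 8.65 and 11.40 in knockout SB and 11.23, 11.62 and 12.01 in knockout VILI. In wild type all VILI arrays exceeded all SB arrays, and in knockout 1 SB array exceeded all VILI arrays. The low pair lay 2.75 log2 units, 6.72-fold, below the other 4. The differences were 1.60 ± 0.99 in wild type and 0.83 ± 0.99 in knockout (limma, adjusted p = 0.306 for wild type), and without the 2 low arrays 0.47 and -0.24.

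Angptl4 encodes a secreted inhibitor of lipoprotein lipase that is also a target of PPARs and of hypoxia. Its lead probe set read 11.72, 11.76 and 8.57 in wild-type SB, 11.74, 9.16 and 12.03 in knockout SB, 11.45, 11.83 and 12.00 in wild-type VILI and 11.36, 11.52 and 11.64 in knockout VILI. The low pair stood 2.57 log2 units, 5.92-fold, under the other 4 SB arrays, which overlapped VILI. On this probe set the difference was 1.08 ± 0.88 in wild type, 0.53 ± 0.88 in knockout and 0.80 on average (limma, adjusted p = 0.331 for the average), and without the 2 arrays 0.02, -0.38 and -0.18.

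The second Angptl4 probe set gave another picture. It read 7.62, 8.67 and 3.33 in wild-type SB, 7.63, 3.36 and 7.92 in knockout SB, 10.65, 10.28 and 9.88 in wild-type VILI and 9.45, 9.53 and 9.19 in knockout VILI. Every VILI array exceeded every SB array, while the 2 low SB arrays were again far below the other 4. The difference was 3.73 ± 1.39 in wild type and 3.09 ± 1.39 in knockout (limma over every probe set, adjusted p = 0.113 and 0.144) and 3.41 ± 0.98 on average (adjusted p = 0.0246). That average missed the threshold in 2 of the 12 fits with an array dropped, those lacking wild-type VILI replicate 1 (adjusted p = 0.0511) and without knockout VILI replicate 2 (adjusted p = 0.0528). Without the 2 low arrays the differences were 2.12 ± 0.32, 1.62 ± 0.32 and 1.87 ± 0.22. The 2 probe sets thus disagreed on VILI and shared the order within SB. Which transcripts each one reads, the sources used here do not say.

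**Figure D2:**
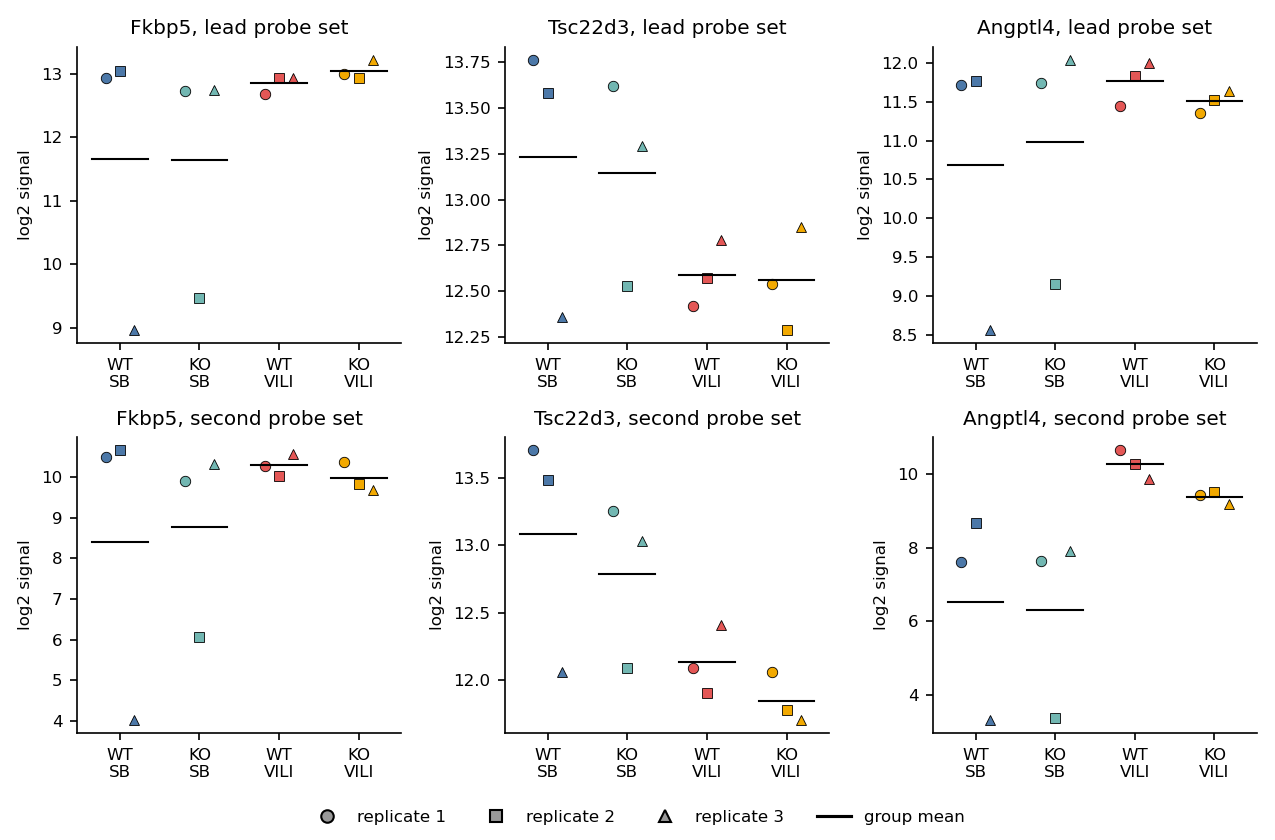
Log2 signal of the lead (top) and second (bottom) probe set of Fkbp5, Tsc22d3 and Angptl4, 1 point per lung array, with groups along the x axis, the replicate number as marker shape and the group mean as a line. The low pair of SB arrays recurs in both probe sets of Fkbp5 and Angptl4, and only the second Angptl4 probe set has all VILI arrays (9.19 to 10.65) above all SB arrays (3.33 to 8.67).

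By the limma test, with p adjusted over all 12309 genes, none of the 9 members passed 0.05 in wild type, where 15.4% of genes did. An unadjusted p under 0.05 was had by 2 of the 9 members, against 31.1% of all genes. Of the genes called after adjustment 41.2% were higher, or 52.5% with the array medians set equal, which changed the direction of no member. In knockout 1 member of 9 passed, Nr3c1, against 20.7% of genes. For the average of both genotypes 2 of 9 passed, Nr3c1 lower and Cebpd higher, against 36.7% of genes, so the members were called no more often than genes at large. On lead probe sets, the members' groups did not overlap for 4 of 9 in wild type (Nr3c1, Sgk1, Pdk4 and Cebpd), where 36% of genes did not overlap. In knockout this held for 3 of 9 (Nr3c1, Fkbp5 and Cebpd), where the share was 43.8%. The knockout groups overlapped on the second Fkbp5 probe set, where 1 SB array read 10.31 and the lowest VILI array 9.69. The median difference for the average was 0.59 over the members and -0.05 over all genes, and without the 2 low SB arrays it was 0.07 over the members and -0.03 over all genes. An exact permutation test of the average, two-sided, with SB and VILI exchanged within each genotype over 400 arrangements, gave p = 0.005, the smallest it can give, for Nr3c1 and for Cebpd. It gave 0.025 for Sgk1, 0.065 for Tsc22d3, 0.13 for Fkbp5, 0.165 for Pdk4, 0.17 for Klf9, 0.18 for Zbtb16 and 0.44 for Angptl4, unadjusted for the 9 tests.

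The fit without the 2 low SB arrays, an alternative chosen after the values were seen, leaves 2 SB arrays per genotype and drops arrays picked on the members' own values, so what it gives for the members is a description and not a set of calls. Its threshold was passed by Tsc22d3 and Cebpd in wild type (Cebpd 0.57 ± 0.15), beside 17.9% of all genes, and by Tsc22d3 and Nr3c1 in knockout (Nr3c1 -0.48 ± 0.12), beside 19.5%. For the average it was passed by Tsc22d3, Nr3c1 (-0.41 ± 0.09) and Cebpd (0.45 ± 0.11), beside 34.8%. Nr3c1 and Cebpd, which were not low in both arrays, had passed for the average with all 12 arrays, and Tsc22d3 had not. The differences for Fkbp5, Zbtb16, Klf9 and Pdk4 then lay between 0.03 and 0.12 on average. By their lead probe sets, Fkbp5, Zbtb16, Sgk1, Klf9, Pdk4 and Angptl4 had no difference past the threshold in either fit, whereas the second Angptl4 probe set passed with all arrays.

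**Figure D3:**
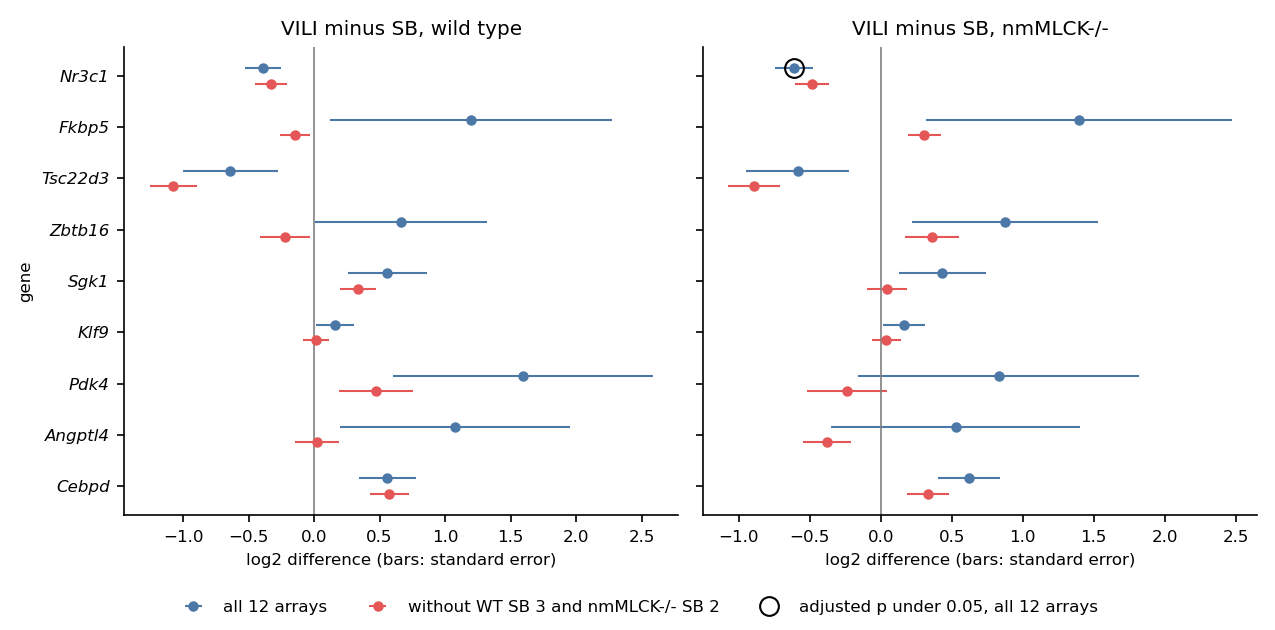
VILI minus SB in log2 units for the lead probe set of each gene, in wild type (left) and nmMLCK-/- (right), with all 12 arrays (blue) and without knockout SB replicate 2 and wild-type SB replicate 3 (red). Bars are standard errors and open circles mark an adjusted p under 0.05 in the fit of all 12 arrays; the wide blue bars of Fkbp5, Pdk4 and Angptl4 shrink once the pair is left out, and Tsc22d3 moves further below 0.

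The genotype made no difference that passed the test in any member. The change of the VILI response between knockout and wild type was called by limma for 0 of 9 members and 0 of all genes (0%). An unadjusted p under 0.05 was had by 619 genes (5.03%) and no member. Standard errors over the members were 0.19 to 1.52 log2 units. Under SB 0 of 9 members differed between genotypes, against 0.0487% of genes, and under VILI 0 of 9, against 0.106%, and in neither case did a member have an unadjusted p under 0.05. Of all genes, 460 (3.74%) under SB and 1070 (8.69%) under VILI had an unadjusted limma p under 0.05. Under VILI the groups did not overlap for Nr3c1 (knockout minus wild type, -0.24 ± 0.14 log2 units), Sgk1 (-0.24 ± 0.30) and Zbtb16 (0.45 ± 0.66), as for 20.5% of all genes (lowest adjusted p of a member, 0.636). The comparisons of VILI with SB and of the genotypes under SB share their SB arrays. Without the 2 low SB arrays no member was called either, against 0.0894% of genes for the change of response, 0.154% under SB and 0.227% under VILI. Each genotype had 1 of those arrays, so the genotype contrast under SB has a wide error for the 4 genes with the widest gap.

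Of 22 other genes known to be induced by glucocorticoids, all tested, 9 rose and none fell for the average of both genotypes, with a median difference of 0.54 log2 units. Of all genes, 36.7% were called in that comparison, 14.1% higher and 22.6% lower. Mfsd2a, a lipid transporter, rose by 2.38 ± 0.18 (limma, adjusted p = 2.16e-05), and Il1r2, a decoy receptor for interleukin-1 that neutrophils also express, by 5.42 ± 0.59 (adjusted p = 0.000168). Mt1, a metallothionein that also responds to metals and cytokines, rose by 2.20 ± 0.34 (adjusted p = 0.00103), and Anxa1, an annexin that limits leukocyte entry and is abundant in neutrophils, by 0.44 ± 0.08 (adjusted p = 0.00296). Knockout SB replicate 2 and wild-type SB replicate 3 were the 2 lowest SB arrays for 16 of the 22, against 17.5% of all genes. For 7 the distance was at least 1 log2 unit, against 0.804% of all genes. These arrays were singled out on targets of the same receptor, so the counts are a description with no test. Leaving them out raises SB for those 16 genes by construction, and the values of that fit are likewise a description. Without these 2 arrays 10 passed the threshold upwards and 3 downwards, with a median of 0.23, against 34.8% of all genes. The rise of neutrophil markers in the same comparison is given above, and its part in these rises was not tested.

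**Figure D4:**
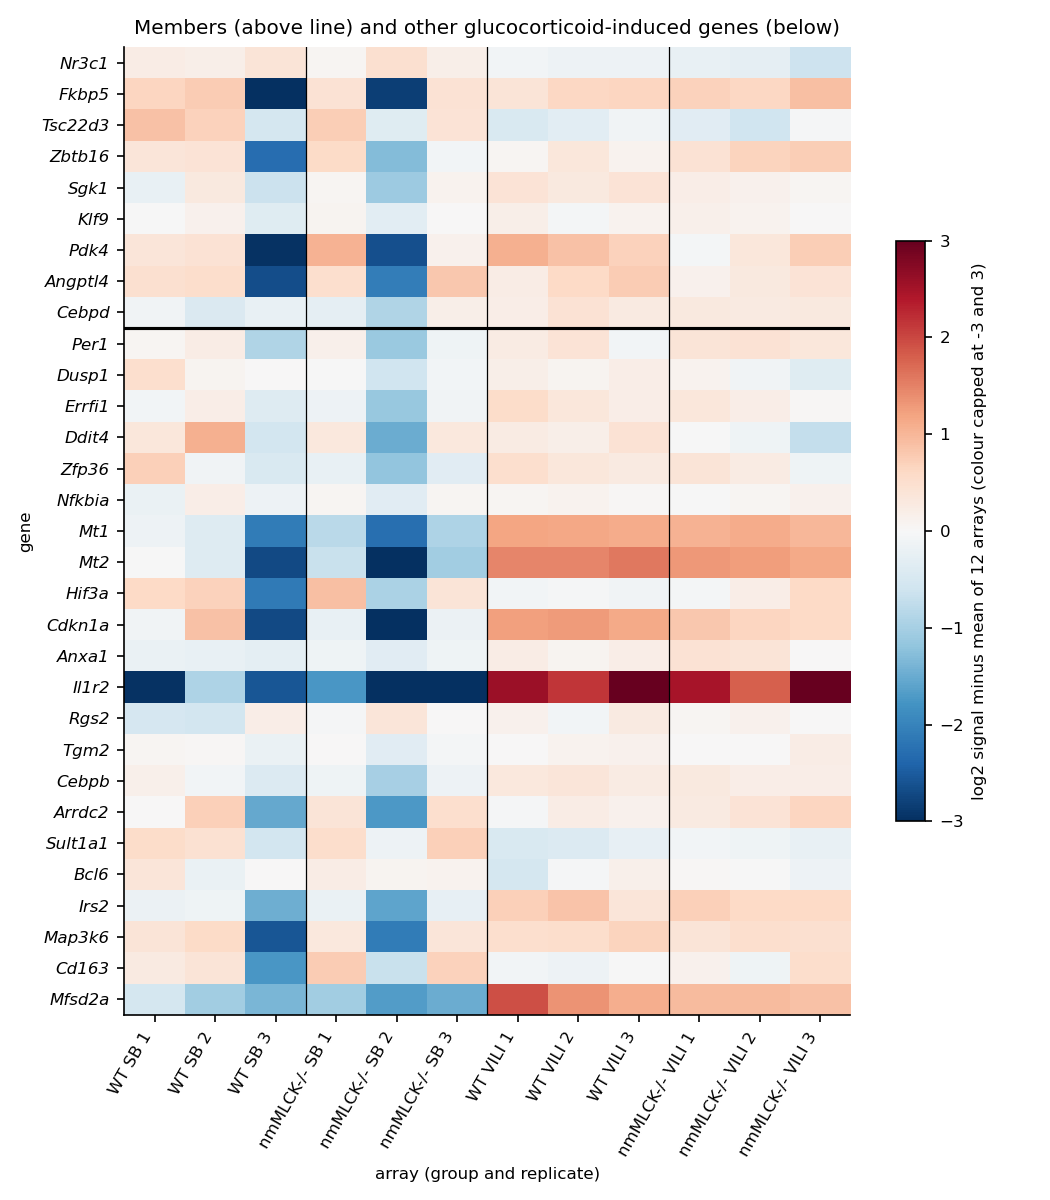
Log2 signal minus the mean of the 12 arrays for the 9 members (above the line) and 22 other glucocorticoid-induced genes (below), with 1 column per array and colours capped at -3 and 3. Knockout SB replicate 2 and wild-type SB replicate 3 are the blue columns for most rows. They are the 2 lowest SB arrays for 7 of the 9 members and 16 of the 22 other genes, against 17.5% of all genes.

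Of 17 listed chaperones, cofactors and enzymes that govern the receptor and its ligand, 13 were tested, and for the average 5 fell and none rose, with a median of -0.19 log2 units. Of all genes, 22.6% fell and 14.1% rose, 36.7% together. Hspa8, a constitutive chaperone, differed by -0.36 ± 0.08 (limma, adjusted p = 0.00633), and Hsd11b1, which regenerates active glucocorticoid inside cells, by -0.35 ± 0.08 (adjusted p = 0.00636). Nr3c2, the mineralocorticoid receptor, differed by -0.65 ± 0.15 (adjusted p = 0.00708), and Fkbp4, a co-chaperone that aids nuclear entry of the receptor, by -0.61 ± 0.14 (adjusted p = 0.00803). Without the 2 SB arrays 6 passed downwards and none upwards, against 34.8% of all genes in either direction. The genes of PPAR signalling and the fasting response, which share Pdk4 and Angptl4 as targets, showed 2 higher and 1 lower of 13 tested (18 listed), with a median of -0.32, against the same 36.7% of all genes called. Ppard, a lipid-sensing nuclear receptor, rose by 0.80 ± 0.19 (adjusted p = 0.00784), and Ppargc1a, a coactivator of oxidative metabolism, by 0.94 ± 0.25 (adjusted p = 0.014). Acadm, a dehydrogenase of fatty acid oxidation, differed by -0.41 ± 0.14 (adjusted p = 0.0416), a call lost in 7 of 12 fits with an array dropped, and Pparg by -0.40 ± 0.14 (adjusted p = 0.0507). For 8 of the 13 genes tested the 2 low arrays were also the lowest of SB, so leaving them out raises SB by construction. The values of that fit are therefore a description with no test. Without the 2 SB arrays 1 passed the threshold upwards, Ppard, and 7 downwards, with a median of -0.50, against 34.8% of all genes. Ppargc1a then missed it (adjusted p = 0.0518). Fat and muscle express many of these genes, and their markers varied in the same comparison. The 6 of 10 adipose markers tested had a median difference of -0.37 with none called, their summed level being 11.37 to 12.45 in wild-type SB, 11.20 to 13.17 in knockout SB, 11.92 to 12.41 in wild-type VILI and 12.14 to 12.28 in knockout VILI, as log2, with Lep and Ucp1 under the filter. The largest term of this sum on every array was Pnpla2, at 10.74 to 12.15, whereas Adipoq ran from 6.39 to 11.30. All 10 cardiac and skeletal muscle markers were tested, with a median of -0.72, 1 higher and 1 lower, and sums of 15.18 to 15.58, 14.76 to 15.97, 13.97 to 15.73 and 14.49 to 15.28 in the same order of groups. Their part in the PPAR and fasting genes was not tested.

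The genes most like Fkbp5 across arrays were picked by the Pearson correlation with its lead probe set. Over the 12 arrays they were Map3k6, a stress kinase that is itself on the list of glucocorticoid-induced genes (r = 0.994), Trp53inp1 (0.987), Slc7a5 (0.982), Gclc (0.981) and Med13l (0.981). These correlations rest in large part on the 2 low SB arrays, least so for Slc7a5. Over the other 10 arrays they were, in the same order, 0.38, 0.17, 0.77, 0.36 and 0.52. Over the 6 SB arrays alone the closest genes were Map3k6, Trib3, Slc22a21, Tgfbr3 and Gm11827. Map3k6 read 8.68 in wild-type SB replicate 3 and 9.15 in knockout SB replicate 2, and 11.56 to 11.92 in the other 10 arrays. Trib3, a pseudokinase of the stress response, read 6.27 and 6.58 in those 2 arrays and 8.16 to 8.35 in the other 4 of SB, but 6.94 to 7.42 in VILI, so after VILI it lay between the low pair and the other 4, where Fkbp5 did not. By the distance between the 2 arrays and the rest of SB, Fkbp5 came after only Doc2b (5.58 log2 units) and Slc7a5 (3.68), an amino acid transporter.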

How the data were processed

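Lung RNA of 12 mice, 3 per group, was measured on one-colour Affymetrix mouse arrays from 6 ug of total RNA each, per the labels' protocols. The authors deposited one normalized value per probe set and array, read here as log2 signals from their range (0.75 to 16.29). The submitters' processing notes name MAS5 and GCRMA, without versions, roles or order. The genome build: not given in the sources used here. Array signals compress at low values, so a fold there may be understated, and the number of arrays limits the precision.

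Of the 45037 probe sets, 34945 had 1 gene symbol, 932 several and 9160 none. Only the first kind was used. Probe sets whose mean was under the 40th percentile (3.06) were left out, and the highest-mean probe set stood for each of 12309 genes. Other probe sets of the members were tested among all 22443 past the filter. Levels were not compared between probe sets. limma 3.58.1 (R 4.3.3) fitted 4 group means over the 12 arrays, with Benjamini-Hochberg adjustment over all genes and a threshold of 0.05. The labels name no batch, and p-values measure the spread between these arrays. On data simulated for these genes, with 200 changed, the test recovered 76.7% of 2-fold and 97% of 4-fold changes in wild type, 76.4% and 96.6% in knockout, and 89.5% and 99% for the average. The simulated spread was normal and the same in all 4 groups, and changed genes were drawn at random. The rates therefore do not describe members with outlying SB arrays. In wild type the median standard error was 0.15 over all genes and reached 1.08 over the members.

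The members and lists were chosen with earlier results of these data known. The text names the 9 members, up to 4 genes of each pathway list with the smallest p for the average difference, and the 5 genes most correlated with Fkbp5 over all arrays and over SB arrays. Doc2b was named after its value was seen. Alternatives were other scalings and filters, every probe set, fits of only the 2 groups compared, a replicate block, and leaving out arrays. Figures were drawn with matplotlib 3.10.9 (Python 3.11.15).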

Additional observations from a re-analysis of the deposited data

How the results depend on the processing

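Of 1272 values recomputed for 64 results under other settings, 1144 kept their direction and side of the threshold, or for counts stayed within 1.5 times. Leaving out knockout SB replicate 2 and wild-type SB replicate 3 together, chosen after seeing the data, reversed Fkbp5 in wild type (-0.15), Zbtb16 in wild type (-0.22), Pdk4 in knockout (-0.24), Angptl4 in knockout (-0.38) and Angptl4 on average (-0.18). It gave 2 members called in wild type, 2 in knockout, 8 PPAR and fasting genes, 11 genes for the difference of responses, 19 for the genotypes under SB and 28 under VILI. Leaving out 1 array at a time gave Fkbp5 in wild type from -0.15 to 1.90, Zbtb16 in wild type from -0.22 to 1.12, Pdk4 in knockout from -0.24 to 1.59 and Angptl4 in knockout from -0.38 to 1.06. The reversals came without wild-type SB replicate 3 for Fkbp5 and Zbtb16 and without knockout SB replicate 2 for Pdk4 and Angptl4. In those fits the genes called ranged from 933 to 2052 in wild type, 1232 to 3301 in knockout, 0 to 6 for the difference of responses, 0 to 16 for the genotypes under SB and 2 to 19 under VILI, the members called from 0 to 2 in wild type, 1 to 2 in knockout and 2 to 3 on average, and the PPAR and fasting genes called from 2 to 8. With no filter 1 gene was called for the difference of responses and 6 for the genotypes under VILI, and with a filter at the 60th percentile 8. Testing every probe set called 7191 for the average, more features being tested. Fitting only the 2 groups compared, with fewer arrays to estimate the spread, called 845 genes in wild type and 0 for the genotypes under SB. Other than where stated, the cause was not tested.

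Same-numbered replicates of different groups deviated from their group means with correlations of -0.63 to 0.40 over 18 pairs, 3 of them over 0.1. No pairing by number was seen. With 3 arrays per group, and low SB arrays that carry different numbers, this check cannot exclude it. With the replicate number as a block, 0 genes were called for the genotypes under SB and 2 under VILI. With 3 arrays per group, and 2 of 6 SB arrays apart from the rest, the wide errors of Fkbp5, Pdk4 and Angptl4 leave differences of several-fold undetectable.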
